A study of Mus musculus with 14 samples.

Results

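The 10 genes described here encode the TGF-beta ligands Tgfb1, Tgfb2 and Tgfb3, the receptors Tgfbr1 and Tgfbr2, the matricellular proteins periostin (Postn), tenascin-C (Tnc), thrombospondin-1 (Thbs1) and osteonectin (Sparc), and fibronectin (Fn1). They were found by their symbols among the 24054 genes of a count table from mouse left ventricle, each in 1 row, and all 10 passed the filter on low counts that left 13588 genes for testing. RNA was measured by poly(A) RNA-seq in 14 libraries of 3 groups, with the genotype given as C56Bl6 in every one. HFpEF-FoxO1-sh (5 libraries) were mice kept on High-Fat + L-NAME for 6 weeks that had AAV-FoxO1-sh for 4 weeks. HFpEF-scr (4 libraries) were on this diet for as long and had AAV-scramble-sh for 4 weeks. Control (5 libraries) had the control diet for 10 weeks, with no AAV named. HFpEF-FoxO1-sh and HFpEF-scr thus differed from control in diet, L-NAME, AAV and weeks of diet at once, and these cannot be told apart. L-NAME is an inhibitor of nitric oxide synthase, and together with a high-fat diet it is used in mice to model heart failure with preserved ejection fraction (HFpEF). An adeno-associated virus (AAV) carries the hairpin, and its promoter and the cells it reached are not given in the sources used here, nor are the age and sex of the mice.

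TGF-beta is secreted in a latent form that is held in the extracellular matrix until proteases, integrins or thrombospondin-1 release it. The free ligand binds TGFBR2, which recruits and phosphorylates TGFBR1, and TGFBR1 then phosphorylates SMAD proteins that enter the nucleus. In the heart the pathway is known for turning fibroblasts into matrix-producing cells. Matricellular proteins are secreted into the matrix and act on cells and on collagen rather than bearing load, and several of them are themselves induced by TGF-beta.

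The total counts of a library lay between 13.17 M and 21.25 M. Levels are given as CPM, counts scaled to a common library size with TMM factors, and a gene was called at an adjusted p under 0.05 in edgeR's quasi-likelihood test with Benjamini-Hochberg adjustment over all genes tested. The labels do not say that libraries of a group came from separate animals, so p-values measure the spread between these libraries, which may be in part technical. The transcript that the hairpin is named for was checked first. Foxo1 had 41.5, 46.0, 39.3, 43.8 and 41.4 CPM in HFpEF-FoxO1-sh 1 to 5, against 44.8, 48.3, 41.0 and 40.1 CPM in HFpEF-scr 1 to 4 and 44.2, 42.2, 42.4, 47.0 and 44.4 CPM in control 1 to 5. The groups overlapped, and relative to HFpEF-scr the log2 fold change in HFpEF-FoxO1-sh was -0.04 ± 0.06 (SE; adjusted p = 0.78, edgeR; 95% interval -0.17 to 0.09). A lower Foxo1 transcript was therefore not seen in the libraries labelled HFpEF-FoxO1-sh, and every direction given for them rests on the label. HFpEF-scr 1 stood apart in blood transcripts: its summed level of 5 red cell genes was 3392 CPM, against 314.9 to 676.1 CPM in the other HFpEF-scr libraries, so results are also given without it where it matters.

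Relative to HFpEF-scr, Tgfb1, Sparc and Fn1 were lower in the libraries labelled HFpEF-FoxO1-sh, and none of the 10 genes was higher. Tgfb1 fell by 21.2%, Sparc by 26.9% and Fn1 by 38.4%. The fitted fold changes of all 10 genes lay below 0, as did those of 48.7% of all genes tested, and their median log2 fold change was -0.39, beside 0.00 over all genes. Of all genes tested, 2.26% were called lower, 1.32% higher and 3.58% in either direction. In whole ventricle, fewer cells of a type and less RNA per cell cannot be told apart. Groups did not overlap for Tgfb1, Sparc and Fn1, with every HFpEF-FoxO1-sh library the lower, as was so for 4.23% of all genes. The count of 3 was 0 without HFpEF-FoxO1-sh 1 and 1, Tgfb1, without HFpEF-scr 1, and between 2 and 4 without any other library.

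Relative to control, the libraries labelled HFpEF-FoxO1-sh had less Tgfb1, Sparc and Tnc, and none of the 10 genes rose. Tgfb1 fell by 26.3%, Sparc by 26.2% and Tnc by 56.5%. The background was 6.28% of all genes called lower, 6.68% called higher and 13% in either direction. Of the 10 genes 5 lay above 0 and 5 below, with a median of -0.05, where 50.8% of all genes lay below 0. The count remained 3 without control 4 or HFpEF-FoxO1-sh 3 and was 2, Tgfb1 and Sparc, without any other library. Tgfb1 and Sparc were lower in every HFpEF-FoxO1-sh library than in any control library, as were 5.53% of all genes.

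In HFpEF-scr against control, none of the 10 genes was called by edgeR, where 7.37% of all genes were, 3.66% higher and 3.7% lower. At an unadjusted p under 0.05 there were 4, namely Fn1, Thbs1, Postn and Tgfbr1, all with positive fold changes. That threshold is loose, as Tgfbr1 stood only at rank 2254 by p among the 13588 genes tested. In HFpEF-FoxO1-sh, genes down to at least rank 2447 against HFpEF-scr and rank 3594 against control were under it. Counts at an unadjusted p, here and below, are thus a description, with no share of all genes beside them. DESeq2 called 1 of the 10, Postn (log2 fold change 0.45, adjusted p = 0.0363), and limma voom called 0. The fitted fold changes of 9 of the 10 lay above 0, with a median of 0.12, where 49.6% of all genes lay below 0. Groups overlapped for each of the 10 genes, while 8.93% of all genes had no overlap. The count was 2 without HFpEF-scr 2 (Postn and Fn1) and without HFpEF-scr 3 (Thbs1 and Fn1), and 1 without control 2 (Fn1) and without control 5 (Thbs1). The 3 comparisons share libraries with each other, so a high value in HFpEF-scr enters the first and the third with opposite sign.

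**Figure D1:**
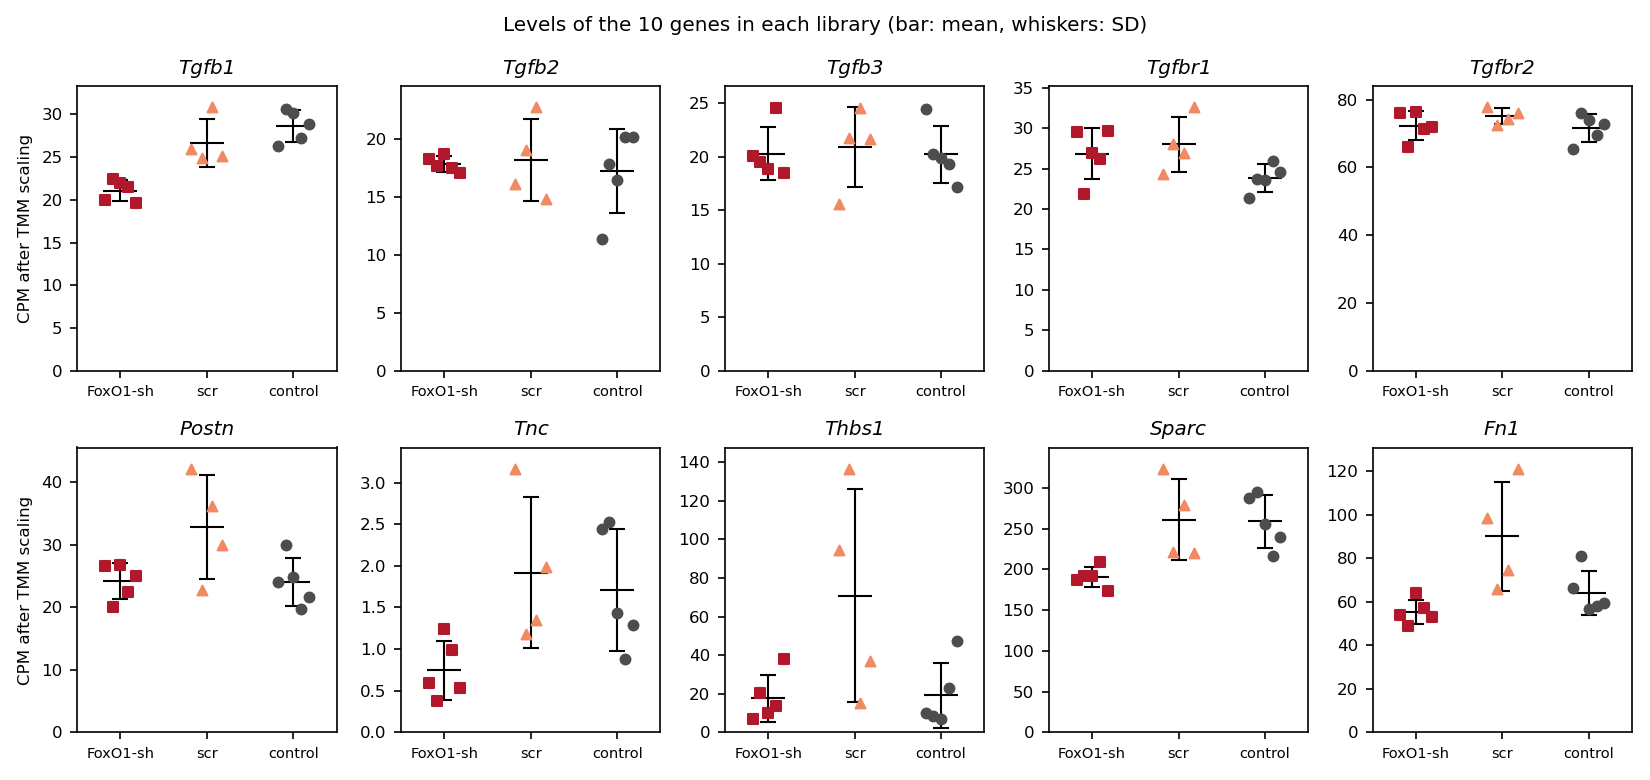
Level of each of the 10 genes in every library, in CPM after TMM scaling (y axis, from 0), for HFpEF-FoxO1-sh (squares, n = 5), HFpEF-scr (triangles, n = 4) and control (circles, n = 5), with points in the order of the library numbers, the mean as a bar and the SD as whiskers. For Tgfb1 and Sparc the HFpEF-FoxO1-sh squares lie below every other point, and for Thbs1 the HFpEF-scr triangles spread between 15.1 and 136.7 CPM.

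**Figure D2:**
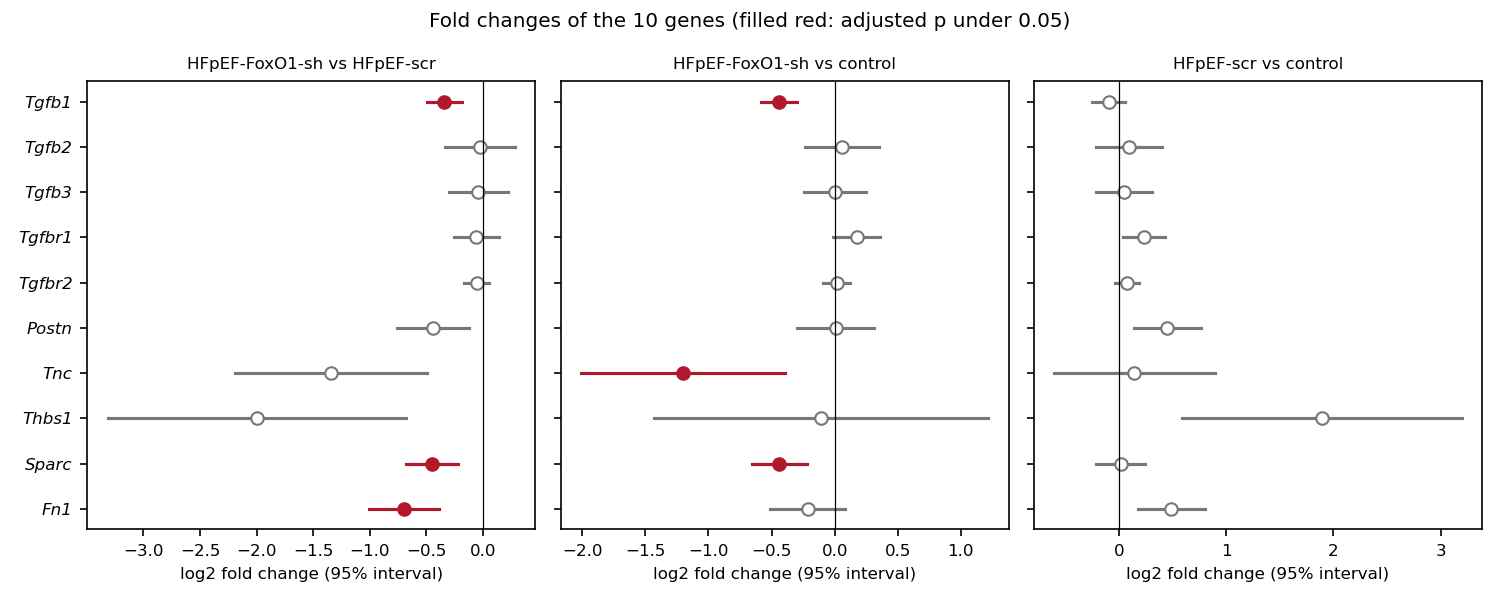
Log2 fold change (x axis) of each gene with its 95% interval in the 3 comparisons, from edgeR's quasi-likelihood fit, filled red where the adjusted p was under 0.05. Tgfb1 and Sparc are red in both comparisons of HFpEF-FoxO1-sh, Fn1 against HFpEF-scr and Tnc against control, and no gene is red in HFpEF-scr against control.

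Tgfb1, the main isoform in injured tissue, lies at chr7:25687002-25705077 on the plus strand (GRCm38, GENCODE vM21, as are all gene positions below). It had 19.98, 22.4, 21.9, 21.5 and 19.6 CPM in HFpEF-FoxO1-sh 1 to 5, against 26.0, 24.9, 30.9 and 25.2 CPM in HFpEF-scr 1 to 4 and 26.3, 30.6, 30.2, 27.2 and 28.8 CPM in control 1 to 5. The 5 HFpEF-FoxO1-sh libraries were the lowest of the 14, while HFpEF-scr and control overlapped. The log2 fold change was -0.34 ± 0.07 over HFpEF-scr (SE; edgeR adjusted p = 0.0204) and -0.44 ± 0.07 over control (edgeR adjusted p = 0.000642). In HFpEF-scr over control it was -0.10 ± 0.07 (edgeR adjusted p = 0.448). The call against control was kept without each library in turn. The call against HFpEF-scr was lost without HFpEF-scr 3 (-0.26, edgeR adjusted p = 0.0589) and without HFpEF-FoxO1-sh 1 (-0.32, edgeR adjusted p = 0.059).

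Tgfb2 (chr1:186622792-186705989, minus strand) and Tgfb3 (chr12:86056745-86079041, minus strand) encode the other two isoforms, which act through the same receptors. Tgfb2 averaged 17.9 ± 0.67 CPM in HFpEF-FoxO1-sh, 18.2 ± 3.5 CPM in HFpEF-scr and 17.2 ± 3.6 CPM in control (SD; n = 5, 4 and 5). Its HFpEF-FoxO1-sh libraries lay within 17.1 to 18.8 CPM, a narrower range than the 14.8 to 22.8 CPM of HFpEF-scr and the 11.4 to 20.2 CPM of control. Tgfb3 averaged 20.3 ± 2.5 CPM in HFpEF-FoxO1-sh, 20.9 ± 3.8 CPM in HFpEF-scr and 20.2 ± 2.6 CPM in control. Groups overlapped for both genes in every comparison. For HFpEF-FoxO1-sh over HFpEF-scr the 95% interval of the log2 fold change ran between -0.34 and 0.28 for Tgfb2 and between -0.30 and 0.22 for Tgfb3. Of the exon bases of Tgfb3, 12.4% lie under genes of the other strand, and whether counting used strand is not given in the sources used here.

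Levels of different genes were compared per kilobase of merged exons, which join all annotated transcripts of a gene. These lengths were 5042 bases for Tgfb1, 5791 for Tgfb2 and 3383 for Tgfb3. The transcripts present were not determined, so the order and shares below rest on these lengths. In CPM without a length, Tgfb1 averaged above Tgfb3 in each group, at 28.64 against 20.2 in control and 21.08 against 20.28 in HFpEF-FoxO1-sh. Among the ligands Tgfb3 was highest at a median of 5.90 CPM per kb over the 14 libraries, followed by Tgfb1 at 5.07 and Tgfb2 at 3.07. Tgfb1 made up between 29.3% and 33.5% of the ligand level per kb in HFpEF-FoxO1-sh, against 33.6% to 41% in HFpEF-scr and 36.3% to 40.7% in control. The HFpEF-FoxO1-sh shares thus lay below all others, by a narrow margin against HFpEF-scr. This share holds the same Tgfb1 values as the test above and is a description.

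The promoter windows of Tgfb1 and Tgfb2 are shown because Tgfb1 fell and Tgfb2 did not pass the test, and that of Tnc because it had the largest called change among the 10 genes. For Tnc, which has 2 starts in RefSeq, the one farther upstream is given. Each is the stretch of 250 bases before a start of transcription in RefSeq (GRCm38.p6), given 5′ to 3′ on the strand of the gene. Capitals mark short motifs, which were searched on either strand unless said otherwise and do not overlap here. The letters that SMAD proteins are known to bind were searched as CAGAC. For the FoxO factors the motif searched was GTAAACA. For AP-1, the dimer of FOS and JUN proteins, it was TGANTCA. For TEAD factors of the Hippo pathway it was GGAATG. The GC box, bound by factors of the SP family, was searched as GGGCGG. The TATA box was searched as TATAAA, on the strand of the gene alone.
Tgfb1, chr7:25686752-25687001, plus strand: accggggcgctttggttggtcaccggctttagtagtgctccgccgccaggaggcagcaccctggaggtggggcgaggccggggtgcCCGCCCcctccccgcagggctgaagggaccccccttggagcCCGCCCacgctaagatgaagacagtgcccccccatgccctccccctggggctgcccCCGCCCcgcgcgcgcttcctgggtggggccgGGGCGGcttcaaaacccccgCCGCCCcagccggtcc
Tgfb2, chr1:186705990-186706239, minus strand: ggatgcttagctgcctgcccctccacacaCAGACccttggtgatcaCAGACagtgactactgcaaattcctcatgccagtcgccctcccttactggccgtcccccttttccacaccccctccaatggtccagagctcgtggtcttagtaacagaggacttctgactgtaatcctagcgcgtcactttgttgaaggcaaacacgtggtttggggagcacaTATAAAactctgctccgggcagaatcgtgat
Tnc, chr4:64047016-64047265, minus strand: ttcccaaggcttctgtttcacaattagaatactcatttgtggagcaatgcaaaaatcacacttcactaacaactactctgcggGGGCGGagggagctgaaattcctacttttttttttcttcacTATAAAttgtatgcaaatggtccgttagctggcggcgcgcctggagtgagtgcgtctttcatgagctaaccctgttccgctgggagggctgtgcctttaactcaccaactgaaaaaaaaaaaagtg
Tgfb1 held 5 GC boxes and no TATA box in a window of 75.2% G and C. Tgfb2 held the SMAD letters at 221 and 204 bases before the start and the TATA box at 31, in a window of 53.6% G and C. Tnc held 1 GC box at 167 bases and the letters TATAAA at 126 bases before its start, in a window of 44.8% G and C. Whether the TATAAA letters of Tnc serve as a TATA box was not tested. The window of the other Tnc start, which overlaps the printed one, also held the SMAD letters, at 70 bases before that start. Of 32851 promoter windows of the same length, 32.7% held the GC box, 42.2% the SMAD letters, 7.59% the letters TATAAA, 12.6% the TEAD letters, 6.75% the AP-1 letters and 3.17% the FoxO letters. The FoxO letters were in none of the windows of the 7 genes that matched a RefSeq entry, which says only that these letters are not there. Tgfb3, Thbs1 and Fn1 had no entry.

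Tgfbr2 (chr9:116084293-116175360, minus strand), the receptor that binds the ligand, kept close levels in the 3 groups. It averaged 72.3 ± 4.2 CPM in HFpEF-FoxO1-sh, 75.1 ± 2.3 CPM in HFpEF-scr and 71.6 ± 4.1 CPM in control (SD; n = 5, 4 and 5), and the groups overlapped. Its log2 fold change over HFpEF-scr was -0.05 ± 0.05 (95% interval -0.17 to 0.06), and over control it was 0.02 ± 0.05 (95% interval -0.09 to 0.12). Tgfbr1 (chr4:47353222-47414931, plus strand), the kinase that phosphorylates SMADs, had 29.5, 21.9, 27.0, 26.1 and 29.7 CPM in HFpEF-FoxO1-sh 1 to 5, against 24.4, 28.0, 27.0 and 32.6 CPM in HFpEF-scr 1 to 4 and 21.3, 23.7, 23.6, 25.9 and 24.5 CPM in control 1 to 5. Both HFpEF groups reached above the highest control library and both overlapped it. The log2 fold change was 0.23 ± 0.09 for HFpEF-scr over control (edgeR adjusted p = 0.142) and 0.17 ± 0.09 for HFpEF-FoxO1-sh over control (edgeR adjusted p = 0.221), and neither was called. Per kilobase, Tgfbr2 stood at a median of 8.96 and Tgfbr1 at 3.98 CPM per kb.

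Sparc (chr11:55394500-55423183, minus strand), which binds collagen and takes part in its processing, was by far the highest of the 10 genes at a median of 58.2 CPM per kb, and Tnc the lowest at 0.163. Sparc had 188, 192, 192, 209 and 174 CPM in HFpEF-FoxO1-sh 1 to 5, against 324, 221, 279.6 and 220.0 CPM in HFpEF-scr 1 to 4 and 287, 295, 256, 216 and 240.0 CPM in control 1 to 5. The highest HFpEF-FoxO1-sh library, at 209 CPM, was still below the lowest control at 216 and the lowest HFpEF-scr library at 220.0. The log2 fold change was -0.45 ± 0.11 over HFpEF-scr (edgeR adjusted p = 0.0338) and -0.44 ± 0.10 over control (edgeR adjusted p = 0.0109), while HFpEF-scr over control gave 0.01 ± 0.11 (edgeR adjusted p = 0.961). The call against control was kept without each library in turn. The call against HFpEF-scr was lost without any of 7 of the 9 libraries, with edgeR adjusted p of 0.0988 without HFpEF-scr 1, 0.082 without HFpEF-scr 3, and 0.0755, 0.0648, 0.0611, 0.0526 and 0.0599 without HFpEF-FoxO1-sh 1, 2, 3, 4 and 5. The fold change stayed between -0.52 and -0.33 throughout.

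Fn1 (chr1:71585520-71653200, minus strand) encodes fibronectin, a matrix glycoprotein on which other matrix proteins assemble. It had 54.2, 48.8, 63.9, 57.2 and 53.1 CPM in HFpEF-FoxO1-sh 1 to 5, against 98.4, 65.9, 74.6 and 121 CPM in HFpEF-scr 1 to 4 and 66.2, 81.1, 56.6, 58.0 and 59.4 CPM in control 1 to 5. All HFpEF-FoxO1-sh libraries lay below all HFpEF-scr libraries but overlapped with control, and HFpEF-scr 4 and HFpEF-scr 1 were the highest of the 14. Against HFpEF-scr the log2 fold change was -0.70 ± 0.15 (edgeR adjusted p = 0.0195). Over control it was -0.21 ± 0.14 (edgeR adjusted p = 0.363), and HFpEF-scr over control gave 0.49 ± 0.15 (edgeR adjusted p = 0.054). The call against HFpEF-scr was lost without HFpEF-scr 1 (-0.65, edgeR adjusted p = 0.0519) and without HFpEF-FoxO1-sh 1 (-0.69, edgeR adjusted p = 0.0526). HFpEF-scr over control passed without control 2 (edgeR adjusted p = 0.0338), HFpEF-scr 2 (0.0215) or HFpEF-scr 3 (0.0425). It was at 0.31 without HFpEF-scr 4 (edgeR adjusted p = 0.188) and at 0.44 without HFpEF-scr 1 (edgeR adjusted p = 0.105).

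Tnc (chr4:63959785-64047015, minus strand) encodes tenascin-C, which is scarce in the adult heart and returns at sites of remodelling. It had 0.598, 0.373, 1.24, 0.986 and 0.533 CPM in HFpEF-FoxO1-sh 1 to 5, against 3.17, 1.18, 1.34 and 1.98 CPM in HFpEF-scr 1 to 4 and 2.44, 2.52, 1.44, 0.876 and 1.30 CPM in control 1 to 5. HFpEF-FoxO1-sh 3 reached above the lowest library of each other group, so the groups overlapped. Against control the log2 fold change was -1.20 ± 0.38 (edgeR adjusted p = 0.0487) and against HFpEF-scr -1.34 ± 0.40 (edgeR adjusted p = 0.0697). The call against control was lost without any of 8 of the 10 libraries, with edgeR adjusted p of 0.105, 0.108, 0.0599 and 0.108 without HFpEF-FoxO1-sh 1, 2, 4 and 5, and 0.124, 0.117, 0.0635 and 0.0549 without control 1, 2, 3 and 5. It was also lost with no filter on low counts (edgeR adjusted p = 0.0518), with limma voom (adjusted p = 0.0606) and with the immediate early score, described below for Thbs1, as a covariate (-1.18, edgeR adjusted p = 0.0537). Without HFpEF-scr 1 the value against HFpEF-scr was -0.99 (edgeR adjusted p = 0.217). DESeq2 called Tnc against HFpEF-scr as well (-1.36, adjusted p = 0.0217). At these low counts Tnc missed the stricter filter of 10 counts in every library.

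Postn (chr3:54361109-54391037, plus strand) encodes periostin, a marker of activated fibroblasts in the injured heart. It had 26.6, 20.02, 26.8, 22.5 and 25.0 CPM in HFpEF-FoxO1-sh 1 to 5, against 42.2, 22.9, 36.3 and 30.0 CPM in HFpEF-scr 1 to 4 and 24.1, 30.0, 24.9, 19.8 and 21.6 CPM in control 1 to 5. HFpEF-scr 1 and HFpEF-scr 3 were the highest, HFpEF-scr 2 lay among the others, and no comparison was free of overlap. The log2 fold change was -0.44 ± 0.15 for HFpEF-FoxO1-sh over HFpEF-scr (edgeR adjusted p = 0.103), 0.01 ± 0.14 for HFpEF-FoxO1-sh over control (edgeR adjusted p = 0.982) and 0.45 ± 0.15 for HFpEF-scr over control (edgeR adjusted p = 0.0766). Without HFpEF-scr 2, both comparisons of HFpEF-scr passed, at -0.58 against it (edgeR adjusted p = 0.0325) and 0.59 over control (edgeR adjusted p = 0.0205). Without HFpEF-scr 1, which stood apart in blood transcripts, they were at -0.30 (edgeR adjusted p = 0.301) and 0.30 (edgeR adjusted p = 0.209).

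Thbs1 (chr2:118111876-118127133, plus strand), whose product can release TGF-beta from its latent form, varied most between libraries of a group, with the highest 5.58 times the lowest in HFpEF-FoxO1-sh, 9.05 times in HFpEF-scr and 6.97 times in control. It had 6.77, 20.2, 9.86, 13.6 and 37.8 CPM in HFpEF-FoxO1-sh 1 to 5, against 94.4, 136.7, 15.1 and 37.0 CPM in HFpEF-scr 1 to 4 and 10.2, 8.61, 6.79, 23.0 and 47.3 CPM in control 1 to 5. HFpEF-scr 1 and HFpEF-scr 2 were far above the rest, and HFpEF-scr 3 was within the range of both other groups. The log2 fold change was -2.001 ± 0.62 for HFpEF-FoxO1-sh over HFpEF-scr (edgeR adjusted p = 0.0789), -0.11 ± 0.63 for HFpEF-FoxO1-sh over control (edgeR adjusted p = 0.937) and 1.89 ± 0.62 for HFpEF-scr over control (edgeR adjusted p = 0.0714). None passed. HFpEF-scr over control passed without HFpEF-scr 3 (2.23, edgeR adjusted p = 0.0323) or control 5 (2.54, edgeR adjusted p = 0.0291), and HFpEF-FoxO1-sh over HFpEF-scr without HFpEF-scr 3 (-2.34, edgeR adjusted p = 0.0486). Without HFpEF-scr 2 these 2 comparisons were at 1.35 (edgeR adjusted p = 0.235) and -1.46 (edgeR adjusted p = 0.226). Without HFpEF-scr 1 they were at 1.72 (edgeR adjusted p = 0.123) and -1.83 (edgeR adjusted p = 0.166).

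Thbs1 followed the immediate early genes, a set of 18 transcripts such as Fos, Fosb and Nr4a3 that are induced within minutes of a stimulus. Of 17 tested, 3 fell against HFpEF-scr (Fosb, Nr4a3 and Fos), 4 rose in HFpEF-scr against control and 1 rose in HFpEF-FoxO1-sh against control (Ier3). The count of 3 was 1, Fosb, without HFpEF-FoxO1-sh 1, and the count of 4 was 2 without control 3 or HFpEF-scr 2, 7 without control 5 and 6 without HFpEF-scr 3. Their mean log2 CPM ran between 2.77 and 5.06 in HFpEF-FoxO1-sh, 4.06 and 6.18 in HFpEF-scr, and 2.69 and 5.45 in control. Over the 14 libraries Thbs1 had a Pearson's r of 0.929 and a Spearman's rho of 0.96 with this score. The permutation p was 1e-05 for both, the smallest that these permutations can give, and 0.0001 after adjustment over the 10 genes. The r was 0.929 without HFpEF-scr 2 and control 2, the libraries farthest from the median score, and 0.899 for deviations from the group means. For the other 9 genes r lay between -0.302 and 0.203, with a permutation p of 0.983 after adjustment for each. Their r for deviations from the group means was negative throughout, between -0.589 for Postn and -0.054 for Tgfb2, and was not tested. With the score as a covariate in the edgeR fit, the Thbs1 log2 fold change was -0.45 for HFpEF-FoxO1-sh over HFpEF-scr (adjusted p = 0.487) and 0.35 for HFpEF-scr over control (adjusted p = 0.586). In the same fit Tgfb1, Sparc and Fn1 remained called against HFpEF-scr, at -0.39, -0.53 and -0.81 (edgeR adjusted p = 0.0259, 0.0386 and 0.0248). Postn was also called there, at -0.62 (edgeR adjusted p = 0.0447).

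**Figure D3:**
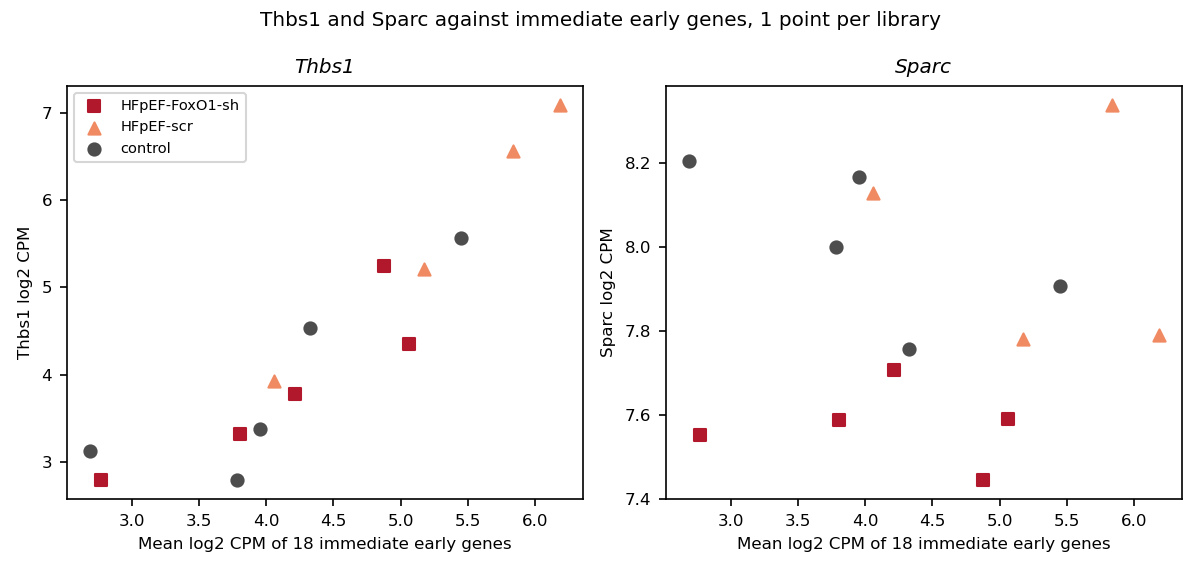
Log2 CPM of Thbs1 (left, y axis) and Sparc (right, y axis) against the mean log2 CPM of 18 immediate early genes (x axis), with 1 point per library of HFpEF-FoxO1-sh (squares), HFpEF-scr (triangles) and control (circles). Thbs1 climbs with the score in all 3 groups, with r of 0.929 over 14 libraries, and Sparc has r of -0.0065.

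Within groups some of the genes varied together. For deviations of log2 CPM from the group means over the 14 libraries, given as a description, r was 0.738 for Tnc with Fn1, 0.732 for Postn with Sparc, 0.682 for Tnc with Sparc and 0.677 for Postn with Tnc. Tgfb1 went with Tgfb2 at 0.525 and with Sparc at 0.408. Tgfbr1 ran against Sparc at -0.673 and Tgfb3 against Thbs1 at -0.534. The libraries share their depth and cell makeup in each of these pairs, and the 45 pairs ranged between -0.673 and 0.738 with a median near 0.

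**Figure D4:**
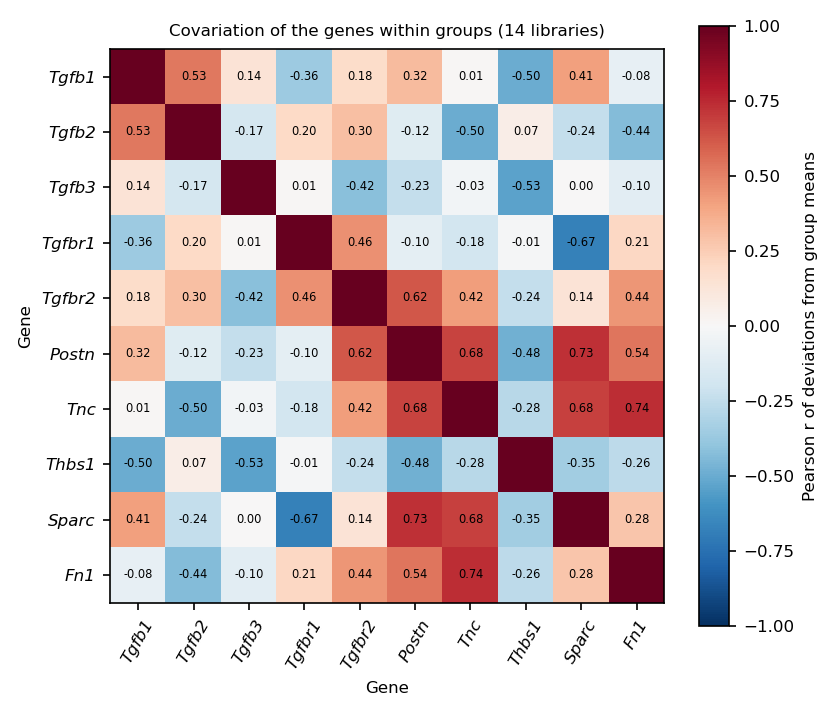
Pearson's r between the log2 CPM of each pair of the 10 genes, taken as deviations from group means over 14 libraries, with the value printed in each cell and colour from blue (-1) to red (1). Postn, Tnc, Sparc and Fn1 form a block of positive values at the lower right, broken by Thbs1, which is negative with all of them.

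For each gene the 3 genes most alike over all 14 libraries were taken, by Pearson's r of log2 CPM, from those that averaged 2 CPM or more. For Tgfb1 they were Lgals3bp (r = 0.918), Rasa3 and Sdc1, and Sdc1 encodes syndecan-1, a heparan sulfate proteoglycan of the cell surface. For Sparc they were Dchs1 (0.956), Meox1 (0.949) and Sez6l2 (0.948), and Meox1 is a transcription factor known from activated cardiac fibroblasts. For Fn1 they included Lyve1 (0.896), a marker of lymphatic endothelium and of resident macrophages, and Ahi1. For Thbs1 they were Maff (0.949), Errfi1 (0.945) and Sik1 (0.944), which are all rapidly induced genes. Postn was most like Limk1 (0.923), Calhm2 and Mxra7, and Tnc most like Lgals9 (0.921), Mall and Snx1. Likeness was lower for Tgfb2 (Tctn2, 0.837), Tgfb3 (B9d2, 0.819), Tgfbr1 (Scn7a, 0.887) and Tgfbr2 (Pros1, 0.85). Such values include the difference between groups, so that genes called in the same comparison are alike by that alone.

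Genes around the pathway were taken as lists, and some genes are in more than 1 list. Of all genes, 3.58% were called against HFpEF-scr, 13% in HFpEF-FoxO1-sh against control and 7.37% in HFpEF-scr against control. Near 13% were 2 of 15 other matricellular genes, 2 of 12 receptors and co-receptors and 3 of 16 latency genes. Near 7.37% were 2 of 20 targets and 1 of 15 other matricellular genes. Such counts say little about a list. Of 20 tested targets of TGF-beta in fibroblasts, 8 were lower in HFpEF-FoxO1-sh libraries than in HFpEF-scr and none rose, with a median log2 fold change of -0.49. These were Col1a1, Col1a2, Col3a1, Col5a1 and Col5a2, which encode fibrillar collagen chains, Loxl2, which crosslinks collagen, Cilp and Meox1. Col3a1 averaged 121 CPM in HFpEF-FoxO1-sh, 254 in HFpEF-scr and 254 in control, a log2 fold change of -1.07 ± 0.12 over HFpEF-scr (edgeR adjusted p = 0.000149). Col1a1 changed by -0.80 ± 0.08 (edgeR adjusted p = 8.89e-05) and Loxl2 by -0.72 ± 0.08 (edgeR adjusted p = 8.89e-05). Against control 8 of 20 fell too, with Eln in place of Cilp, and the median was -0.38. Without each library in turn, between 7 and 10 of the targets fell against HFpEF-scr and 7 or 8 against control. Meox1 kept its call against HFpEF-scr only where HFpEF-scr 2, HFpEF-scr 4 or HFpEF-FoxO1-sh 5 was left out, and Eln lost its call against control without control 1 or 2 or HFpEF-FoxO1-sh 1, 2 or 4. The target Ctgf, chosen for mention after its values were seen, did not pass the test, with a log2 fold change of -0.80 ± 0.28 over HFpEF-scr (edgeR adjusted p = 0.115). In HFpEF-scr against control 2 targets were called higher, Acta2 and Tagln. Tagln is also in the list of pericyte and smooth muscle markers below, where the same call is counted again. Tagln kept its call only where control 5 or HFpEF-scr 2 was left out, and Acta2 lost its call without control 3, HFpEF-scr 3 or HFpEF-scr 4, where no target was called.

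Of 16 genes of TGF-beta latency and activation, 4 fell against HFpEF-scr and none rose. Fbn1, fibrillin-1, which holds latent TGF-beta in microfibrils, had 40.6, 43.5, 47.8, 41.7 and 47.0 CPM in HFpEF-FoxO1-sh 1 to 5, against 107.6, 107.0, 98.1 and 67.8 CPM in HFpEF-scr 1 to 4 and 88.4, 109.0, 87.3, 82.9 and 82.1 CPM in control 1 to 5. The HFpEF-FoxO1-sh libraries lay below all others, and the log2 fold change was -1.11 ± 0.12 over HFpEF-scr (edgeR adjusted p = 8.89e-05) and -1.03 ± 0.11 over control (edgeR adjusted p = 2.51e-05). Emilin1, a matrix protein that restrains TGF-beta maturation, changed by -0.42 ± 0.07 over HFpEF-scr (edgeR adjusted p = 0.00422), and Itgb3 and Plat were the other two. Plat kept its call only where HFpEF-scr 3, HFpEF-scr 4 or HFpEF-FoxO1-sh 2 was left out. Against control 2 of the 16 fell, Fbn1 and Furin, and Itgb1 rose. Furin kept its call only where control 3 was left out. In HFpEF-scr against control 3 rose, Itgb1, Itgb3 and Plat, and Plat kept its call only where control 1, HFpEF-scr 3 or HFpEF-scr 4 was left out.

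Of 12 receptors and co-receptors, none was called against HFpEF-scr by edgeR (3 at an unadjusted p under 0.05), and 1 fell, Nrp1, without HFpEF-scr 4. Against control Cd109, a co-receptor that restrains TGF-beta signalling, fell in both HFpEF groups. It averaged 1.67 CPM in HFpEF-FoxO1-sh, 1.84 in HFpEF-scr and 3.50 in control, with log2 fold changes of -1.06 ± 0.18 and -0.92 ± 0.19 (edgeR adjusted p = 0.00119 and 0.00982). Nrp1 fell in HFpEF-FoxO1-sh against control as well, a call kept only where control 3 or control 4 was left out. Relative to control Acvrl1 rose in HFpEF-scr, a call lost without control 2, 3, 4 or 5 or HFpEF-scr 1 or 4.

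Of 16 SMADs and their regulators, 4 fell against HFpEF-scr, namely Ski, Smurf2, Pmepa1 and Tgfb1i1. The count was 0 without HFpEF-scr 1, HFpEF-FoxO1-sh 1 or HFpEF-FoxO1-sh 4, 1 without HFpEF-FoxO1-sh 3, and 2 without HFpEF-scr 2, HFpEF-scr 3 or HFpEF-FoxO1-sh 2. In HFpEF-scr against control 5 rose, Skil, Ski, Smurf2, Smad6 and Smad7, which all restrain the pathway. That count was 1 without control 3, control 5, HFpEF-scr 1 or HFpEF-scr 4 and 2 without control 2 or control 4. Skil, a SMAD co-repressor that TGF-beta itself induces, was called without each library in turn, with a log2 fold change of 0.56 ± 0.11 (edgeR adjusted p = 0.00772) and means of 31.0 CPM in HFpEF-FoxO1-sh, 40.3 in HFpEF-scr and 27.3 in control. In HFpEF-FoxO1-sh against control none was called by edgeR (4 at an unadjusted p under 0.05). Without control 1 Skil rose, and without HFpEF-FoxO1-sh 1 Smad2 and Smad3 were called.

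**Figure D5:**
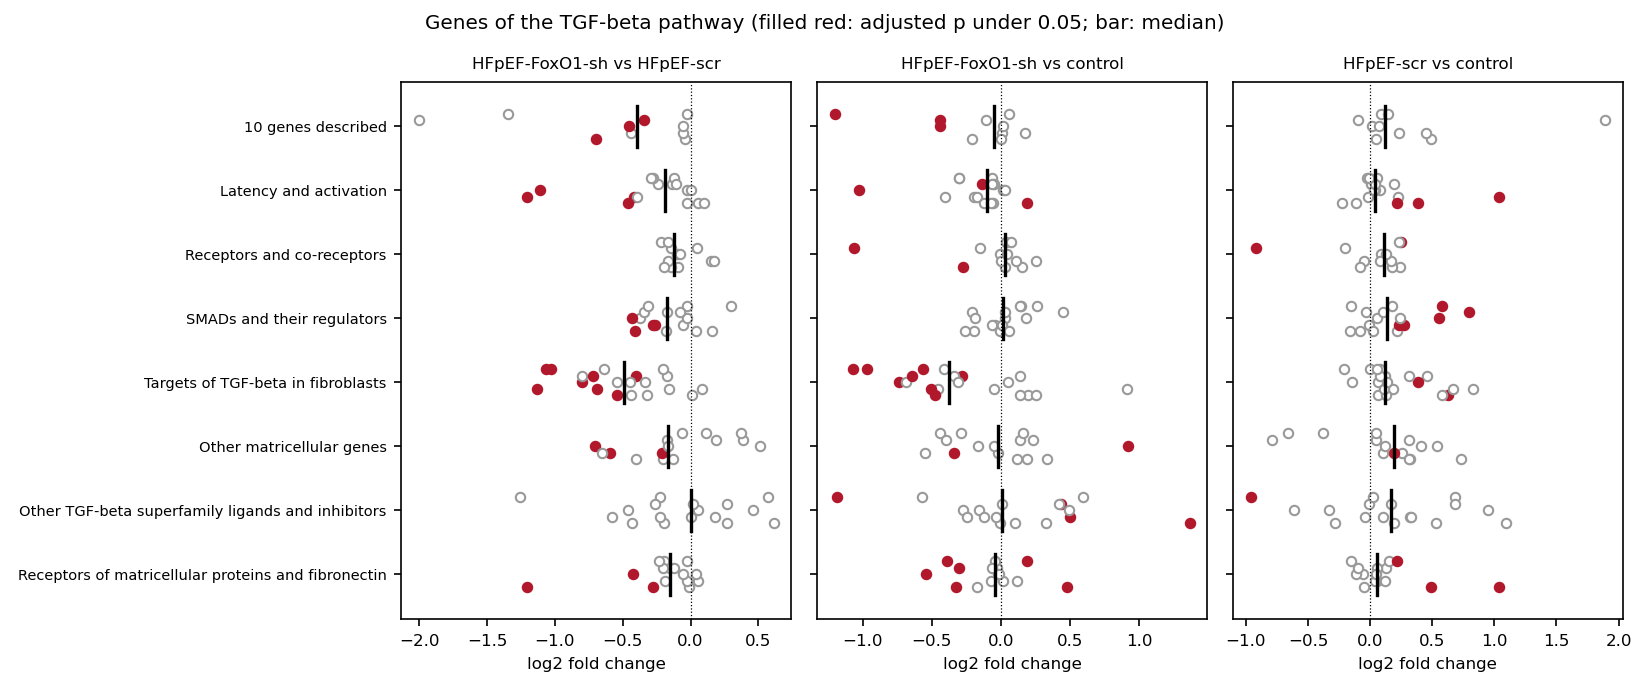
Log2 fold changes (x axis) of the 10 genes and of 7 lists around the pathway (rows) in the 3 comparisons, 1 point per gene, filled red at an adjusted p under 0.05 in edgeR, with the median as a bar. In HFpEF-FoxO1-sh against HFpEF-scr every red point lies below 0, and the targets in fibroblasts have the lowest median of the 7 lists at -0.49.

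Of 15 other matricellular genes, Fstl1, Sparcl1 and Nov fell against HFpEF-scr and none rose. Fstl1 and Sparcl1 were called without each library in turn, while Nov was so only where HFpEF-scr 1, HFpEF-FoxO1-sh 2 or HFpEF-FoxO1-sh 5 was left out. Sparcl1, a relative of Sparc, changed by -0.21 ± 0.04 (edgeR adjusted p = 0.0133), with means of 398 CPM in HFpEF-FoxO1-sh, 462 in HFpEF-scr and 404 in control. Sparcl1 was also the 1 gene of this list called in HFpEF-scr against control, where it rose by 0.19 ± 0.04 on the log2 scale (edgeR adjusted p = 0.0114), and 3 were called without control 4 and 4 without HFpEF-scr 1. Against control Spock2 rose and Fstl1 fell in HFpEF-FoxO1-sh, 2 of 15 where 13% of all genes were called. Neither was called without control 2, Spock2 was not without control 3, control 5 or HFpEF-FoxO1-sh 3, and Fstl1 was not without HFpEF-FoxO1-sh 1.

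Of 17 other ligands and inhibitors of the TGF-beta superfamily, none was called against HFpEF-scr by edgeR (5 at an unadjusted p under 0.05), and 1 rose, Chrd, without HFpEF-scr 4. Against control Bmp7, a ligand known to oppose TGF-beta, averaged 1.55 CPM in HFpEF-FoxO1-sh, 1.81 in HFpEF-scr and 3.54 in control. It fell by 1.19 ± 0.15 on the log2 scale in HFpEF-FoxO1-sh (edgeR adjusted p = 0.000102) and by 0.96 ± 0.16 in HFpEF-scr (edgeR adjusted p = 0.00219). Bmp6, Bmp4 and Mstn rose in HFpEF-FoxO1-sh against control, and Mstn kept its call only where control 4 or HFpEF-FoxO1-sh 4 was the library left out. Of 15 receptors of matricellular proteins and fibronectin, Itga5, Itga9 and Itgb3 fell against HFpEF-scr, a call that Itga9 lost without HFpEF-scr 1, HFpEF-scr 3 or HFpEF-FoxO1-sh 1. Itga5, which pairs with Itgb1 as the main fibronectin receptor, changed by -0.27 ± 0.05 over HFpEF-scr (edgeR adjusted p = 0.0123) and by -0.32 ± 0.05 over control (edgeR adjusted p = 0.000571). Itgb1 and Cd36 rose in both HFpEF groups against control, and Itgb3 rose in HFpEF-scr. Itgb1 and Itgb3 are also in the latency list above, so their calls are counted in both lists. Itga5, Itga9, Sdc1 and Sdc4 fell in HFpEF-FoxO1-sh against control, and Sdc1 kept its call only where control 1, control 4 or HFpEF-FoxO1-sh 2 was left out.

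Markers of cell types that express these genes were read beside them. The 10 fibroblast markers summed to between 1793 and 2258 CPM in HFpEF-FoxO1-sh, 1879 and 2419 CPM in HFpEF-scr, and 1735 and 2066 CPM in control. By the mean log2 CPM of these markers, HFpEF-FoxO1-sh ran between 5.728 and 6.057, below the 6.065 to 6.244 of HFpEF-scr. Control, between 5.851 and 6.073, overlapped both. Against HFpEF-scr 2 of the fibroblast markers fell, the collagen genes Col1a1 and Col1a2. Both are also among the targets above, so this mean in part restates the target result. All 10 lay below 0, with a median of -0.27, and 7 had an unadjusted p under 0.05. In HFpEF-FoxO1-sh against control 5 markers lay above 0 and 5 below, with a median of -0.01, and 2 were called lower. Relative to control, 2 fibroblast markers rose in HFpEF-scr, Pdgfra and Lum, and all 10 lay above 0 with a median of 0.20. In the same comparison 2 of 7 pericyte and smooth muscle markers rose, Tagln and Rgs5, 1 of 6 endothelial markers rose, and 2 of 7 cardiomyocyte markers fell, Myh6 and Myl2, with all 7 below 0. Their part in the Sparc, Fn1, Postn and target gene results was not tested. The 8 macrophage markers summed to between 110.8 and 139.8 CPM in HFpEF-FoxO1-sh, 145.1 and 189.7 CPM in HFpEF-scr, and 155.2 and 214.8 CPM in control, ranges that set HFpEF-FoxO1-sh apart as Tgfb1 did. Of these 8, 2 fell against HFpEF-scr and 7 against control. The part of macrophages in the Tgfb1 result was not tested.

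The 6 endothelial markers summed to between 914 and 962 CPM in HFpEF-FoxO1-sh, 926 and 1358 CPM in HFpEF-scr, and 984 and 1077 CPM in control, and 1 fell in each comparison of HFpEF-FoxO1-sh. Platelet markers, from a cell rich in thrombospondin-1 and TGF-beta protein, summed to between 5.93 and 6.77 CPM in HFpEF-FoxO1-sh, 7.44 and 21.5 CPM in HFpEF-scr, and 6.85 and 11.7 CPM in control, with the highest in HFpEF-scr 1. As with the macrophage markers, the HFpEF-FoxO1-sh sums lay below all others, here by a narrow margin against control. Of 4 tested, 1 fell against HFpEF-scr and 0 were called otherwise by edgeR, with 2 at an unadjusted p under 0.05 in HFpEF-scr against control and 0 in HFpEF-FoxO1-sh against control. The part of platelets in the Thbs1 and Tgfb1 levels was not tested. Cardiomyocyte markers summed to between 89270 and 99770 CPM in HFpEF-FoxO1-sh, 84820 and 95490 CPM in HFpEF-scr, and 95510 and 103400 CPM in control. No marker of the fibroblast, macrophage, endothelial and cardiomyocyte lists was at 0 in any library, while up to 1 of platelets was. Against HFpEF-scr 0 of 7 pericyte and smooth muscle, 0 of 5 mesothelial, 0 of 2 atrial, 0 of 2 valve and 0 of 5 red cell markers were called by edgeR, with 4, 2, 1, 2 and 2 at an unadjusted p under 0.05. Against control the atrial marker Nppa and the tendon marker Scx fell in HFpEF-FoxO1-sh. The other tested marker of the valve and tendon list lay above 0. The sums of that list overlapped, at 8.22 to 13.2 CPM in HFpEF-FoxO1-sh and 8.38 to 13.1 CPM in control.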

How the data were processed

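Poly(A) RNA of 14 mouse left ventricle libraries was measured, prepared with a Swift Biosciences kit per the labels' protocols. The deposited table holds RSEM expected counts per gene, made by the authors with Bowtie2 2.1.0 and RSEM 1.2.15 on mm10 per the submitters' processing notes. The annotation, read layout and strand of counting are not given in the sources used here. Between 15.1% and 16.4% of the values of a library were not whole, and all were rounded. Library totals ran between 13.17 M and 21.25 M, so that genes near 1 CPM, such as Tnc, rest on few counts.

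Groups were taken from the labels. After edgeR's filterByExpr and TMM scaling, all 14 libraries entered 1 quasi-likelihood fit (edgeR 4.0.16 in R 4.3.3), with a two-sided F-test for each of the 3 comparisons and Benjamini-Hochberg adjustment over 13588 genes at 0.05. The common biological coefficient of variation was 0.0999. Levels are CPM after TMM scaling, and log2 CPM used a prior count of 2. The steps were tested on simulated data. DESeq2 1.42.0, limma voom 3.58.1, other scalings and filters, a fit of the 2 groups compared, a replicate block, the immediate early score as a covariate and leaving out each library were tried as alternatives. Permutation tests used 100000 resamples (Python 3.11.15, with ranks from scipy 1.17.1), and figures matplotlib 3.10.9.

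The genes and lists were chosen with earlier results of these data known. Named were Foxo1, the 10 genes, the genes most alike to each, and up to 4 genes of each list and comparison by smallest p. Other list genes are named because they made up a count of calls, and these, like Ctgf, were named after their values were seen. Adgre1 was read under its older symbol Emr1, and Ccn genes as Ctgf, Cyr61, Nov, Wisp1 and Wisp2. Gene positions and exon lengths came from GENCODE vM21 (GRCm38). Promoter windows came from RefSeq. Some genes that these rules name are not reported here.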

Additional observations from a re-analysis of the deposited data

Results flagged for a closer look

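Tgfb3 stood at 24.57 CPM in HFpEF-FoxO1-sh 4, against 18.5 to 20.1 CPM in the other HFpEF-FoxO1-sh libraries. Its gap to the next library was 0.74 of the range of the group, above the critical value of 0.71 for 5 libraries. It was the 1 such value among 30 sets of a gene and a group, where chance gives about 1 in 20. Without this library the log2 fold change of Tgfb3 over HFpEF-scr was -0.12, and over control it was -0.08, and neither passed (edgeR).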

How the results depend on the processing

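Tgfb1, Sparc and Fn1 kept their calls against HFpEF-scr under both other scalings, both other filters, DESeq2, limma voom, the 2-group fit and the immediate early covariate, and Tgfb1 and Sparc theirs against control. In HFpEF-scr against control, where edgeR called 0 of the 10 genes, 1 was called with no filter (Fn1), DESeq2 (Postn), the covariate (Postn) and the replicate block (Thbs1), and 0 to 2 with 1 library left out. Leaving 1 out gave 0 to 4 in HFpEF-FoxO1-sh against HFpEF-scr and 2 to 3 against control. Of all genes, 1001 were called in HFpEF-scr against control, but 504 in the fit of 2 groups, 396 with the covariate and 537 to 1106 with 1 library left out. In HFpEF-FoxO1-sh against HFpEF-scr 486 were called, but 857 by DESeq2, 230 with the covariate and 162 to 668 with 1 library left out. Against control 1760 were called, and 1228 to 1683 with 1 left out. The cause of these shifts was not tested. Tnc was not tested under the filter of 10 counts in every library.

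The replicate numbers did not pair the libraries: for 13 pairs with the same number the correlation of deviations from group means lay between -0.194 and 0.111 with a median of 0.00185, and 1 was over 0.1. With the replicate block, 291 genes were called against HFpEF-scr, Tgfb1 and Thbs1 among the 10, while Sparc and Fn1 had adjusted p of 0.0674 and 0.057 (edgeR). Against control Tgfb1 and Sparc were called with the block, and Tnc was not (-1.16, adjusted p = 0.079, edgeR).

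Signs turned for uncalled fold changes near 0. For HFpEF-FoxO1-sh over control, Tgfb3 was at -0.001726 with DESeq2 size factors, -0.01472 with upper quartile factors, -0.0001201 with no filter, -0.004312 with 10 counts in every library, -0.0004541 by DESeq2, -0.009956 by limma voom, -0.002363 in the 2-group fit and -0.001178 with the block. With upper quartile factors Tgfbr2 was at -0.0001282 and Postn at -0.00812, and by limma voom Thbs1 was at 0.04368. For HFpEF-FoxO1-sh over HFpEF-scr, Tgfb3 was at 0.002258 with the block and Foxo1 at 0.03068 with the covariate. For HFpEF-scr over control, Sparc was at -0.005356 with upper quartile factors and -0.02315 with the block, and Tgfb3 at -0.003436 with the block.

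With 1 library left out, HFpEF-FoxO1-sh over HFpEF-scr ran between -0.1151 and 0.1013 for Tgfb2, -0.1572 and 0.04636 for Tgfb3, -0.118 and 0.02163 for Tgfbr1 and -0.07533 and 0.01522 for Foxo1. Over control it ran between -0.0659 and 0.1267 for Tgfb2, -0.07747 and 0.08253 for Tgfb3, -0.01536 and 0.04695 for Tgfbr2, -0.05428 and 0.09582 for Postn and -0.6027 and 0.5437 for Thbs1. HFpEF-scr over control ran between -0.04095 and 0.1761 for Tgfb2, -0.04699 and 0.1562 for Tgfb3, -0.21 and 0.3286 for Tnc, -0.1099 and 0.08511 for Sparc and -0.07093 and 0.01934 for Foxo1.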
